A study of Mus musculus with 12 samples.

Results

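Layer 2/3 intratelencephalic (IT) neurons are the glutamatergic neurons of the upper cortex that send their axons to other cortical areas and, through the corpus callosum, to the opposite hemisphere. They lie above the layer 4/5 IT neurons, which express the transcription factor Rorb, and above the corticothalamic neurons of layer 6, which express Foxp2. Cux2, a homeobox transcription factor, is kept on in the upper layers, and Enpp2, which makes lysophosphatidic acid outside the cell, is also made by oligodendrocytes. MYT1L is a zinc finger transcription factor found in nearly all neurons, and its paralogs MYT1 and ST18 bind a similar DNA motif.

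The layer 2/3 IT nuclei were chosen by their counts of unique molecular identifiers (UMIs, each standing for 1 captured RNA molecule). A nucleus had to hold at least 2 UMIs of Cux2, at least 1 of Enpp2 and at least 1 of Slc17a7, the vesicular glutamate transporter of cortical excitatory neurons. It could hold at most 1 UMI of Rorb, at most 1 of Foxp2 and 0 of Gad1 and Gad2, the enzymes that make GABA. Only barcodes with at most 12000 UMIs and at most 1% mitochondrial UMIs were considered. Of 78743 barcodes, 71914 passed these limits, 23296 of those held Slc17a7 without Gad1 or Gad2 and are called excitatory here, and 1476 met the whole rule. The layer 2/3 IT nuclei were therefore 2.05% of the barcodes within the limits and 6.34% of excitatory nuclei. The 7 genes of the rule describe how nuclei were selected and were not tested.

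Single-nucleus RNA sequencing was done on cortex from 12 mice at postnatal day 21. The mice were 6 WT (3 of each sex) and 6 Het (3 of each sex). Het animals carry 1 copy of the MYT1L S710fsX germline frameshift allele on a C57BL/6 background, and the line is kept by crossing Het with C57BL/6J mice. AAV9 vectors for recording protein-DNA contacts, with a tdTomato reporter, had been injected through the skull of newborn pups according to the methods, and the tissue came from 4 litters. According to the methods, the animals were told apart by barcodes added in separate wells and then processed together, and 0 barcodes were shared between animals' files.

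The number of layer 2/3 IT nuclei per animal ran from 51 to 193. WT animals had 51, 110 and 184 in males and 87, 87 and 57 in females. Het animals had 112, 110 and 151 in males and 191, 143 and 193 in females. The median layer 2/3 IT nucleus held 7852.5 UMIs, and the median per animal ran from 6122 to 8335.5 UMIs. Of the 1476 nuclei, 1137 held more than 6000 UMIs, the upper limit of the study. Only 206 met all of the study's limits on UMIs, genes and their ratio. WT male 1 had the fewest members and the lowest median, and across genes its counts had a median correlation of 0.933 with those of the other animals of its genotype, against 0.943 for WT female 3 and 0.956 to 0.972 for the other 10 animals. The thresholds cut through a continuum of counts. At the Cux2 limit, 593 nuclei had 2 to under 3 UMIs and 847 that met all other terms had 1 to under 2. At the Enpp2 limit, 463 had 1 to under 2 UMIs and 1439 that met all other terms had fewer than 1.

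The label was checked on markers that the rule did not use. Of a list of 16 layer 2/3 markers, the median layer 2/3 IT nucleus held UMIs of 5, with quartiles of 4 and 7. Rorb-high nuclei (excitatory, at least 3 Rorb UMIs and at most 1 Foxp2 UMI, 2552 in all) held a median of 3, and Foxp2-high nuclei (excitatory, at least 3 Foxp2 UMIs and at most 1 of Rorb and of Cux2, 2976 in all) a median of 1. Since depth differed, with median totals of 7215.5 UMIs in Rorb-high and 5831 in Foxp2-high nuclei, every nucleus was also thinned at random to 4000 UMIs. After thinning, the medians were 4, 2 and 0, and at least 3 of the 16 markers were found in 85.9% of 1377 layer 2/3 IT nuclei, 40.0% of 2258 Rorb-high nuclei and 2.32% of 2368 Foxp2-high nuclei. Thinning left out 99, 294 and 608 shallower nuclei.

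Lamp5, a lysosome-associated membrane protein gene and the third marker of the label, was not part of the rule. It had at least 1 UMI in 39.5% of layer 2/3 IT nuclei, with 25.3% to 51.7% per animal. In Foxp2-high nuclei, which should hold little of it, the share was 4.64%, with 1.401% to 7.69% per animal. Thinned to 4000 UMIs the shares were 25.9% and 3.38%. The Lamp5 level in layer 2/3 IT nuclei was 80.7 ± 15.8 CPM (a gene's share of all counts of the population in an animal, scaled to 1e6, SD over n = 12 animals), against 25.4 ± 6.01 in Rorb-high and 9.23 ± 3.64 in Foxp2-high nuclei. It was higher in layer 2/3 IT nuclei in 12 of 12 animals in both comparisons.

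Layer 2/3 IT nuclei were compared with the Rorb-high and Foxp2-high nuclei of the same animals by edgeR's quasi-likelihood test on counts summed per animal, with the animal as a block. A gene was called when its Benjamini-Hochberg adjusted p was under 0.05 and its log2 fold change was over 1 in size. Against Foxp2-high nuclei, 936 of 8099 tested genes were called (11.6%), 541 higher (6.68%) and 395 lower (4.88%) in layer 2/3 IT nuclei. Against Rorb-high nuclei, 378 of 8360 were called (4.52%), 186 higher (2.22%) and 192 lower (2.3%). The nuclei of the 3 populations come from the same animals, and both comparisons use the same layer 2/3 IT nuclei.

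The layer 2/3 markers were higher in layer 2/3 IT nuclei than in Foxp2-high nuclei. Of the 16, 11 passed the filter on low counts and 11 were called higher, with a median log2 fold change of 3.54. Genes near 0 in Foxp2-high nuclei, such as Calb1 and Stard8 (1.77 CPM there), passed only through their level in layer 2/3 IT nuclei and had to differ, so the count describes the list and supports nothing. Calb1, the calcium buffer calbindin, had 60.6 to 148 CPM in layer 2/3 IT nuclei and 0 to 3.05 in Foxp2-high nuclei, given as levels only. Pdzrn3, a ubiquitin ligase with PDZ domains, had 586 to 866 against 15.3 to 52.2 CPM, a log2 fold change of 4.60 ± 0.12 (SE, edgeR adjusted p = 2.46e-13). Rasgrf2, an exchange factor for Ras and Rac, had 260 to 392 against 14.6 to 49.9 CPM (3.96 ± 0.12, adjusted p = 1.20e-13). Cux1, the paralog of Cux2, had 316 to 446 against 46.7 to 69.1 CPM (2.84 ± 0.06, adjusted p = 6.08e-35). The ranges did not overlap for Pdzrn3, Rasgrf2 or Cux1. The genes with the largest differences also included Pparg, a nuclear receptor for fatty acids, at 213 ± 25.3 against 4.66 ± 2.03 CPM, and Tafa1, a secreted chemokine-like protein, at 3975 ± 698 against 183 ± 93.6 CPM.

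Many of the layer 2/3 markers were also higher than in Rorb-high nuclei. Of the 16 layer 2/3 markers, 12 passed the filter and 8 were called higher, with a median log2 fold change of 1.46. Otof, the synaptic vesicle protein otoferlin, had 23.6 to 60.0 CPM in layer 2/3 IT nuclei and 0.895 to 13.6 in Rorb-high nuclei. Otof and Mdga1 (8.98 CPM in Rorb-high nuclei) passed the filter through their level in layer 2/3 IT nuclei and had to differ, so Otof is given as levels only and the count describes the list and supports nothing. Ccbe1, an extracellular matrix protein of lymphatic growth, had 99.6 to 184 against 9.03 to 31.5 CPM, a log2 fold change of 2.79 ± 0.09 (SE, edgeR adjusted p = 3.40e-28). Igsf11, an adhesion protein outside the list, had 163 to 257 against 26.7 to 45.7 CPM (2.59 ± 0.06, adjusted p = 1.58e-32). The ranges of Ccbe1 and Igsf11 did not overlap. Cux1, Pdzrn3 and Kitl were higher by less than the fold limit (log2 fold changes of 0.45, 0.36 and 0.65, with adjusted p of 6.05e-07, 0.00674 and 4.63e-07), and Pou3f2 did not pass the test (-0.27, adjusted p = 0.20). Adamts2, a procollagen protease, had 46.0 ± 16.8 CPM in layer 2/3 IT nuclei and 14.6 ± 8.67 in Rorb-high nuclei. The layer 2/3 IT level helped it through that filter, so these are given as levels only. Against Foxp2-high nuclei its log2 fold change was 1.39.

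Markers of the layer that defined each neighbouring population were lower in layer 2/3 IT nuclei. Of 10 layer 4/5 markers, 4 passed the filter against Rorb-high nuclei and 4 were called lower. Whrn, a scaffold protein, had 3.74 ± 2.35 CPM in layer 2/3 IT nuclei and 41.9 ± 9.26 in Rorb-high nuclei, through which it passed the filter and had to differ, so it is given as levels only and the count describes the list. Thsd7a, an axonal thrombospondin repeat protein, had 60.5 ± 18.9 against 347 ± 63.4 CPM, a log2 fold change of -2.52 ± 0.10 (SE, edgeR adjusted p = 1.17e-11). Of 19 deep layer markers, 13 passed the filter against Foxp2-high nuclei and 12 were called lower, with a median of -3.58. This count too is partly set by the filter, since Syt6 (1.19 against 158 CPM) and Fezf2 passed only through Foxp2-high nuclei. Hs3st4, a heparan sulfate sulfotransferase, had 23.6 to 105 against 4198 to 5234 CPM (-6.34 ± 0.16, adjusted p = 1.90e-12). Tle4, a corepressor of corticothalamic neurons, had 23.6 to 53.8 against 502 to 757 CPM (-4.22 ± 0.07, adjusted p = 1.07e-38). Across the other pairings the lists were mixed. Against Rorb-high nuclei, 2 of 11 deep layer markers were called lower. Against Foxp2-high nuclei, 1 of 3 layer 4/5 markers was called higher, Thsd7a (1.15, adjusted p = 0.00688), and 1 lower, Deptor. Deptor had 10.8 ± 3.59 CPM in layer 2/3 IT nuclei and 31.4 ± 8.59 in Foxp2-high nuclei. The Foxp2-high level helped it through the filter, so Deptor is given as levels only and its call supports nothing. Sox5 was the deep layer gene that was not called against Foxp2-high nuclei, at 543 ± 89.7 against 876 ± 66.1 CPM, and its level in layer 2/3 IT nuclei was above that in Rorb-high nuclei (370 ± 59.3 CPM, log2 fold change 0.54). Fezf2, which specifies layer 5 neurons, stood at 0 to 1.11 CPM in layer 2/3 IT nuclei.

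**Figure D1:**
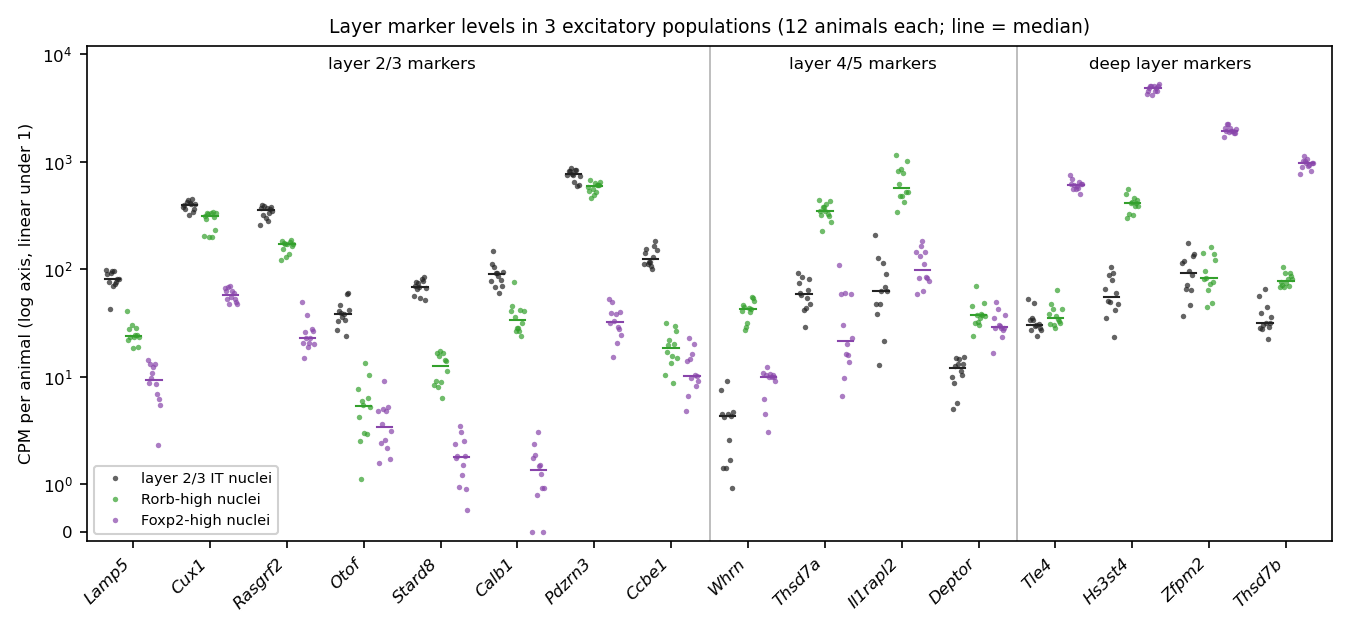
Levels of 16 layer markers (CPM, log axis, linear under 1) in layer 2/3 IT, Rorb-high and Foxp2-high nuclei, with 1 point per animal and a line at the median of 12 animals. The 8 layer 2/3 markers shown, from a list of 16, have their highest medians in the layer 2/3 IT nuclei. Of those not shown, Mdga1, Adamts2 and Kitl also had their highest means there. Pou3f2 did not (12.1 against 13.7 CPM in Rorb-high nuclei), and Rrad, Agmat and Penk stood near 0. Calb1 had 60.6 to 148 CPM in layer 2/3 IT nuclei against 0 to 3.05 in Foxp2-high nuclei. Calb1, Stard8 and Otof passed a filter through their layer 2/3 IT level and had to differ. Hs3st4 and Tle4 sit highest in Foxp2-high nuclei.

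Gene groups that were not chosen to mark layers also differed between layer 2/3 IT and Foxp2-high nuclei. Of 47 synaptic adhesion genes, all of which passed the filter, 16 were called higher and 8 lower (median log2 fold change 0.37), beside 6.68% and 4.88% of all tested genes. Of 29 potassium channel and KChIP genes, 7 were called higher and 5 lower, and of 21 sodium and calcium channel genes that passed, 6 were higher and 1 lower. Against Rorb-high nuclei, where 2.22% of all genes were called higher and 2.3% lower, the counts were 2 and 6 for synaptic adhesion genes, 0 and 2 for potassium channels, and 2 and 0 for sodium and calcium channels. Receptors were split as well: 2 of 21 glutamate receptor genes were higher and 6 lower than in Foxp2-high nuclei, and 3 were higher and 4 lower than in Rorb-high nuclei.

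Most markers of other cell types were low, with exceptions. Slc32a1, Sst, Vip and Pvalb, which define inhibitory neurons, averaged 0.191, 0.261, 1.04 and 0.18 CPM. Adarb2, on the same list, averaged 36.9 CPM, against 70.7 in Rorb-high and 88.7 in Foxp2-high nuclei, and Pde10a, on the list of striatal neuron markers, averaged 1466 CPM, against 1760 and 1329. Aqp4 and Gfap of astrocytes averaged 0.209 and 0.221 CPM, Csf1r of microglia 2.90 and Pdgfra of oligodendrocyte precursors 2.22. Other genes of these lists stood higher. The astrocyte, microglia and oligodendrocyte precursor lists summed to medians of 27.8, 28.1 and 16.6 CPM per animal. These sums were 26.6, 28.3 and 8.16 CPM in Rorb-high nuclei and 18.5, 46.3 and 14.2 CPM in Foxp2-high nuclei. The 12 oligodendrocyte markers summed to 76.9 to 362 CPM per animal, against 55.7 to 126 in Rorb-high and 48.5 to 175 in Foxp2-high nuclei. Among them, Mbp averaged 76.8 CPM and St18 26.8. St18 was the oligodendrocyte marker called against Rorb-high nuclei, with a log2 fold change of 1.33. The layer 2/3 IT nuclei were selected on Enpp2, which oligodendrocytes also make, so this call supports nothing. At least 1 UMI of the 12 oligodendrocyte markers was found in 670 of the 1476 nuclei, 45.4%, in 35.5% of Rorb-high nuclei and in 27.5% of Foxp2-high nuclei. Thinned to 4000 UMIs the shares were 29.7%, 22.5% and 21.2%. Enpp2, which oligodendrocytes also express, was part of the rule, and the part of such UMIs in the results was not tested, except that the share of layer 2/3 IT nuclei and the counts of called genes between genotypes and between populations were repeated on nuclei without them. Between populations, these nuclei gave 280 called of 6365 tested genes against Rorb-high nuclei (378 of 8360 in all nuclei). Against Foxp2-high nuclei they gave 777 of 6678 (936 of 8099 in all nuclei).

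The layer 2/3 IT nuclei varied among themselves. Nuclei with a Lamp5 UMI (583) and those without were compared as a description, with no test. Cux1 averaged 443 CPM in nuclei with a Lamp5 UMI and 347 in those without, and was higher with Lamp5 in 11 of 12 animals. Pdzrn3 averaged 845 against 677 CPM and Rasgrf2 376 against 314 CPM, each higher with Lamp5 in 11 animals. Ccbe1 went the other way, at 101 against 156 CPM, as did Otof at 32.3 against 45.2 CPM, and each was higher with Lamp5 in 1 of 12 animals. Il1rapl2, a synaptic adhesion protein on the layer 4/5 list, averaged 28.1 CPM with Lamp5 and 105 without, and was higher with Lamp5 in 2 animals. The layer 2/3 markers thus did not all go with Lamp5. Rrad, Agmat and Penk, also on the layer 2/3 list, stood near 0. They averaged 0, 0.454 and 0.451 CPM with Lamp5 and 0.415, 0.661 and 0.641 CPM without.

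The share of layer 2/3 IT nuclei among excitatory nuclei was compared between genotypes. It was 5.52% ± 1.53 (SD, n = 6) in WT, with a lowest value of 3.23%, a median of 5.76% and a highest of 7.30%. In Het it was 6.90% ± 1.08 (SD, n = 6), with 4.99%, 7.36% and 7.86%. The groups overlapped, and the difference of 1.37 percentage points gave an exact permutation p of 0.104 (two-sided). In males the difference was 0.506 points (exact permutation p = 0.6) and in females 2.24 points (exact permutation p = 0.2), where 3 against 3 animals allow no p below 0.1. Thinned to 4000 UMIs, the shares were 3.16% ± 1.01 and 4.29% ± 1.14 (exact permutation p = 0.106). When Enpp2 was left out of the rule, 2915 nuclei qualified and the share was 11.1% ± 1.91 in WT and 13.6% ± 0.892 in Het, a difference of 2.51 points (exact permutation p = 0.0108). With at least 2 UMIs of Enpp2 asked for, it was 3.94% ± 1.37 and 4.55% ± 1.00, a difference of 0.603 points (exact permutation p = 0.379), and among nuclei without oligodendrocyte UMIs it was 4.89% ± 1.22 and 5.81% ± 1.29, a difference of 0.920 points (exact permutation p = 0.234). Without Het male 2, the animal with the lowest Het share, the difference under the full rule was 1.76 points (exact permutation p = 0.0303). In the other 11 comparisons that left out 1 animal, the exact permutation p ran from 0.0519 to 0.208.

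**Figure D2:**
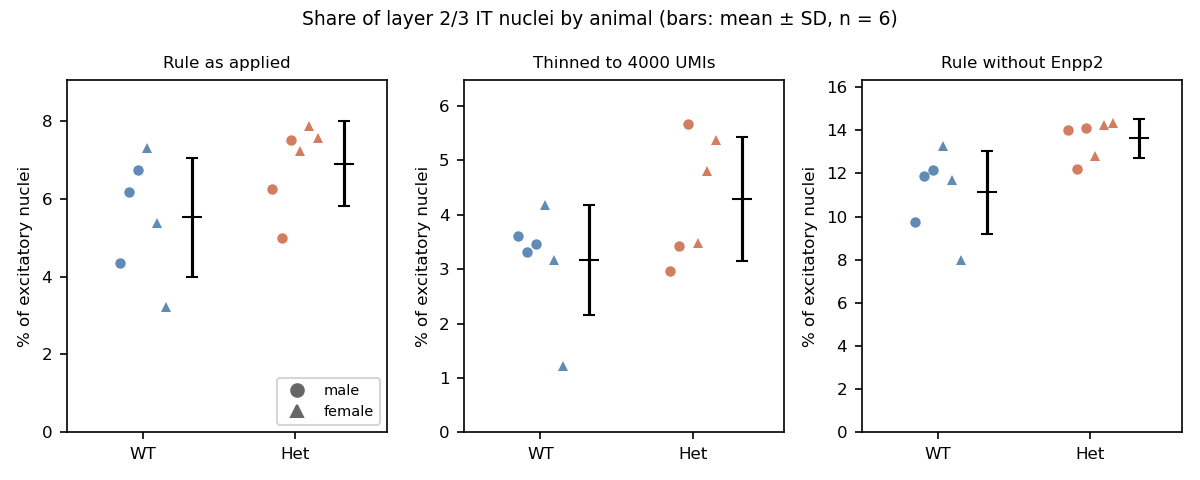
Share of layer 2/3 IT nuclei among excitatory nuclei (percent, 1 point per animal, circles male and triangles female, bars mean ± SD of 6 animals) under the rule, after thinning to 4000 UMIs, and with Enpp2 left out of the rule. WT and Het overlap in all 3 panels, with means of 5.52% and 6.90% under the rule.

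Expression in the layer 2/3 IT nuclei was then compared between Het and WT by edgeR's quasi-likelihood test on counts summed per animal, where a gene was called at an adjusted p under 0.05 and a log2 fold change over 0.2 in size. Myt1l itself had a lowest, median and highest level of 842, 957 and 1123 CPM in WT and 901, 970 and 1140 CPM in Het. The groups overlapped almost wholly, and the log2 fold change was 0.03 ± 0.08 (SE, edgeR adjusted p = 0.973). Counts over the whole gene do not separate the frameshift allele from the WT allele, so this does not check the genotype labels. Xist stood at 280 to 387 CPM in females and 0 to 5.10 in males, and the Y-linked Uty at 107 to 146 CPM in males and 0 to 2.81 in females, as the sex labels have it. Lamp5 had 41.9, 91.0 and 98.6 CPM in WT and 70.0, 77.7 and 95.8 in Het, with a log2 fold change of -0.07 ± 0.14 (adjusted p = 0.958).

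Of 7220 tested genes, 8 were called (0.111%), 5 higher (0.0693%) and 3 lower (0.0416%) in Het, and the median log2 fold change over all tested genes was -0.0036. Among the 3 lower, Gm49164 passed the filter on low counts through its level in WT, so its call supports nothing. A further count, of genes with an unadjusted p under 0.05, gave 574 (7.95%), 297 higher (4.11%) and 277 lower (3.84%). Under DESeq2, 24 genes were called, 3 higher and 21 lower, among them Gpc6 and Kctd16 of the 8, and that tool gave an adjusted p to 641 genes only.

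The gene with the smallest p was Spred2, an inhibitor of Ras to ERK signalling (chr11:19924375-20024026, plus strand, mm10). Its levels were 133, 148 and 158 CPM in WT (lowest, median, highest) and 197, 223 and 248 CPM in Het. Every Het animal was above every WT animal, and the log2 fold change was 0.57 ± 0.09 (SE, edgeR adjusted p = 0.00173). Spred2 was higher in Het in all 13 alternative fits that gave it an adjusted p, and DESeq2 was not among them. It was called in each of the 12 fits that left out 1 animal. The log2 fold change was 0.67 in males and 0.47 in females, where it was not called (edgeR adjusted p = 0.312), nor was it called within the study's own limits, where a fit with at least 10 nuclei per animal left the 3 WT males against all 6 Het animals (0.59, edgeR adjusted p = 0.761).

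Ankrd33b, an ankyrin repeat protein (chr15:31291478-31367726, minus strand), had 110, 126 and 161 CPM in WT and 166, 179 and 190 CPM in Het, a log2 fold change of 0.47 ± 0.09 (SE, edgeR adjusted p = 0.0270). The groups did not overlap. Clmp, an adhesion molecule of cell junctions (chr9:40685962-40785319), had 24.6, 32.5 and 41.8 CPM in WT and 43.7, 56.2 and 88.1 in Het (0.93 ± 0.18, adjusted p = 0.0255). Antxr1, a collagen-binding receptor that anthrax toxin also uses (chr6:87133853-87335821), had 9.97, 20.3 and 25.2 CPM in WT and 27.8, 36.7 and 40.0 in Het (0.99 ± 0.20, adjusted p = 0.0311). For Clmp and Antxr1 too, no WT animal reached the lowest Het animal, and both genes overlap gene models without an established name. Over all tested genes the groups did not overlap for 34 (0.471%). Per2, a repressor of the circadian clock (chr1:91415982-91459324), had 27.5, 41.8 and 65.7 CPM in WT and 65.3, 70.0 and 78.3 in Het (0.68 ± 0.14, adjusted p = 0.0282). For Per2, WT male 1 was the WT animal within the Het range.

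Among the genes that fell, Gpc6, a glypican that carries heparan sulfate at the cell surface (chr14:116925315-117976544, plus strand), had 1371, 1489 and 1779 CPM in WT and 1054, 1166 and 1383 CPM in Het. The log2 fold change was -0.43 ± 0.08 (SE, edgeR adjusted p = 0.00761), all 6 Het animals were below the WT median, and the highest Het animal was just above the lowest WT animal. Gpc6 was called in each of the 12 fits that left out 1 animal, but not with Enpp2 left out of the rule (-0.33, edgeR adjusted p = 0.259), in females (-0.28, adjusted p = 0.537) or within the study's limits (-0.21, adjusted p = 0.863). Kctd16, an auxiliary subunit of the GABA-B receptor (chr18:40256962-40531630), had 2148, 2296 and 2509 CPM in WT and 1741, 1872 and 2085 CPM in Het, with no overlap (-0.32 ± 0.07, adjusted p = 0.0446). Of the 12 fits that left out 1 animal, 2 kept the call, against 3 for Per2, 4 for Ankrd33b, 6 for Antxr1, 8 for Clmp and 10 for Gm49164. Kctd16 overlaps Gm50403, a gene model whose reads may not be told apart from its own. The other was Gm49164, a gene model of chromosome 14 that overlaps other gene models. It had 14.0 to 33.7 CPM in WT and 4.55 to 15.3 CPM in Het, a log2 fold change of -1.50. Its WT level carried it through the filter on low counts, which favours a difference, so its adjusted p is not given here.

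**Figure D3:**
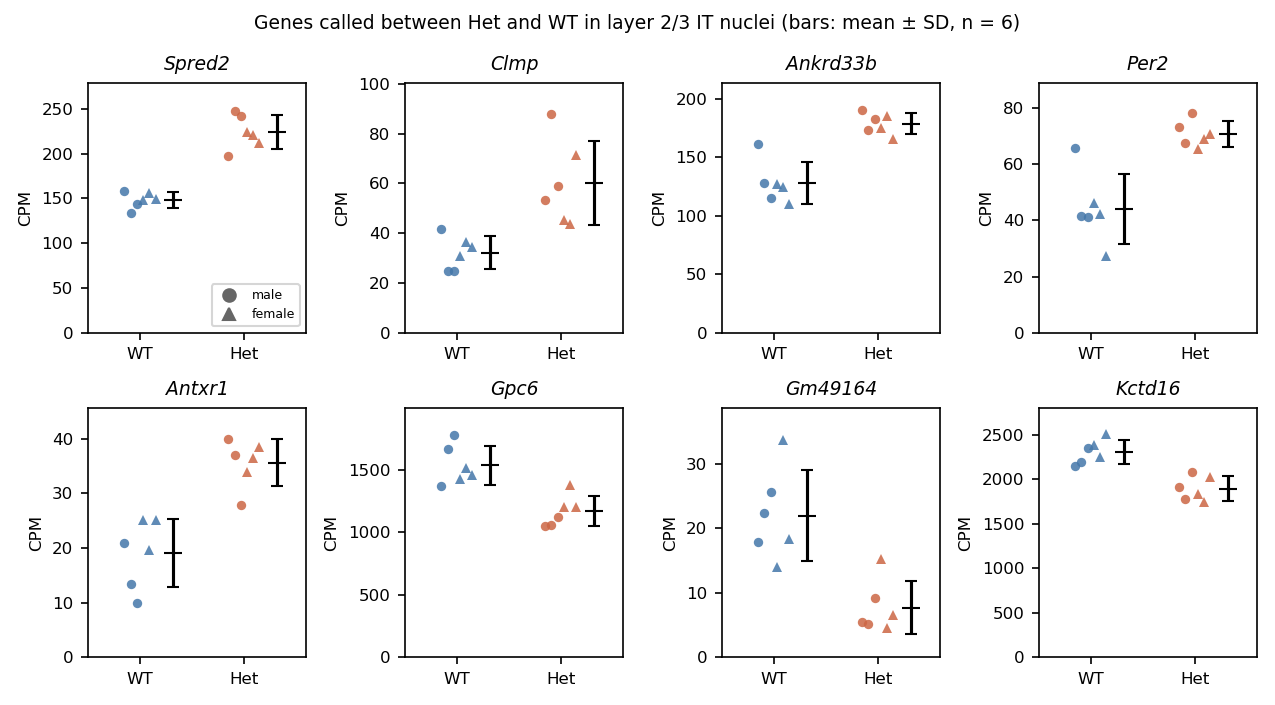
Levels (CPM, 1 point per animal, circles male and triangles female, bars mean ± SD of 6 animals) of the 8 genes called between Het and WT in layer 2/3 IT nuclei. Spred2, Clmp, Ankrd33b, Antxr1 and Kctd16 show no overlap between the genotypes, with Spred2 at 133 to 158 CPM in WT and 197 to 248 CPM in Het.

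The oligodendrocyte markers had a higher median sum in Het in the same nuclei, and their part in the Het differences was not tested beyond the counts given here. Their sum was 76.9 to 275 CPM in WT (median 111) and 90.4 to 362 CPM in Het (median 182). Mbp, myelin basic protein, had 41.2, 48.0 and 101 CPM in WT and 71.5, 85.5 and 141 in Het (log2 fold change 0.69, edgeR adjusted p = 0.40), while St18 had a log2 fold change of 0.23. Among nuclei without any UMI of the list, Spred2 (0.55), Ankrd33b (0.57) and Gpc6 (-0.54) were the 3 called genes. Of the others, Clmp (0.98), Antxr1 (0.91) and Kctd16 (-0.33) had log2 fold changes close to those in all nuclei, Per2 had 0.47 in place of 0.68, and Gm49164 did not pass the filter. The summed level of the 7 astrocyte markers was 17.2 to 48.1 CPM in WT and 17.9 to 37.3 in Het, with medians of 36.5 and 23.9. The vector transcript TDTOMATO was found in 765 nuclei (51.8%) at 184 ± 67.9 CPM in WT and 183 ± 47.1 CPM in Het (SD, n = 6 each, exact permutation p = 0.974, two-sided).

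Spred2 and Ankrd33b are the called genes whose promoters were in the RefSeq promoter table used here, and their sequences show whether the core motif of the MYT1 family, AAGTT on either strand, stands before these start sites. The 250 bases before each start are printed 5′ to 3′ on the gene's strand (GRCm38.p6), in lower case with any match in capitals, for Spred2 at chr11:19924192-19924441 and for Ankrd33b at chr15:31367760-31368009. The RefSeq start of Spred2 lies inside the gene model whose coordinates are given above.
Spred2: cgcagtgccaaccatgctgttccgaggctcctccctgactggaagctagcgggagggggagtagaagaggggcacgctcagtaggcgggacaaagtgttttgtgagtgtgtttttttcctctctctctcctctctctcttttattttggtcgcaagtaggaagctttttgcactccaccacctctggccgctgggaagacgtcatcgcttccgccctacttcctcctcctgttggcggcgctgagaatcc
Ankrd33b: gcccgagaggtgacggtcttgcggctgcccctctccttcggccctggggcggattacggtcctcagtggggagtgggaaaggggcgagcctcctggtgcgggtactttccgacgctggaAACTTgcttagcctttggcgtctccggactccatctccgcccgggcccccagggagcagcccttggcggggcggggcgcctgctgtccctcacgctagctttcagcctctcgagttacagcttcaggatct
Ankrd33b held 1 match, on the opposite strand (AACTT as printed, from base 120), and Spred2 held 0. Of 32851 promoters of the same length, 35.3% held the motif, so a match is common, and neither its presence nor its absence in this window says whether MYT1L binds.

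Next in order of p stood genes that did not pass the adjusted threshold, whose values are given without a call. Those with higher values in Het were Anxa11, an annexin (0.77, edgeR adjusted p = 0.0540), Etv5, an ETS transcription factor downstream of growth factor signalling (0.70, adjusted p = 0.106), Rph3a, the synaptic vesicle protein rabphilin (0.60, adjusted p = 0.106), Mast3, a kinase (0.54, adjusted p = 0.112), Per3, a paralog of Per2 (0.56, adjusted p = 0.112), Nxpe4 (0.58, adjusted p = 0.123) and Nuak1, a kinase of axon branching (0.54, adjusted p = 0.123). Anxa11 had 18.3 to 33.7 CPM in WT and 35.1 to 47.3 in Het, and Nuak1 33.6 to 50.6 and 57.5 to 71.6, both without overlap.

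Those with lower values were Tafa1 (-0.39, edgeR adjusted p = 0.0679), Sphkap, an anchor of protein kinase A (-0.37, adjusted p = 0.0706), Mef2c, a transcription factor of activity-dependent synapse development (-0.29, adjusted p = 0.112), Adgrb3, an adhesion receptor for C1q-like proteins (-0.24, adjusted p = 0.141), Csmd3 (-0.28, adjusted p = 0.141), Cpne8, a copine (-0.46, adjusted p = 0.142), Dok6, an adaptor of receptor kinases (-0.30, adjusted p = 0.145), Pex5l, a partner of HCN channels (-0.31, adjusted p = 0.147) and Kctd8, another GABA-B receptor subunit (-0.57, adjusted p = 0.167). Mef2c had 1139 to 1431 CPM in WT and 945 to 1120 in Het, and Adgrb3 3607 to 4154 and 3221 to 3395, both without overlap. Tafa1, one of the genes that set layer 2/3 IT nuclei apart from Foxp2-high nuclei, had 3643 to 5206 CPM in WT and 2823 to 4207 in Het, with overlap.

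No gene of the 23 lists was called between Het and WT by edgeR after adjustment, with 574 of all genes at an unadjusted p under 0.05. The counts at an unadjusted p under 0.05 are therefore given beside the 7.95% of all tested genes and describe the lists without a test. Of the 12 layer 2/3 markers tested, 0 were higher and 3 lower (median log2 fold change -0.03): Calb1 (-0.42), Pdzrn3 (-0.21) and Kitl (-0.24), each with overlapping groups. Calb1 had 67.4, 97.5 and 148 CPM in WT and 60.6, 82.8 and 94.1 CPM in Het. Of 12 transcription factors of projection neurons, 1 was higher, Tbr1 (0.74), and 2 were lower, Mef2c and Sox5 (-0.25). Tbr1, a deep layer factor, had 5.60, 8.69 and 12.6 CPM in WT and 11.5, 15.9 and 17.8 CPM in Het. Its Het level carried it through the filter on low counts, which favours a higher value in Het, so its place in these counts supports nothing. Among 11 deep layer markers, Tbr1 was the higher one, and Tle4 (-0.37) and Sox5 were lower. Of 3 layer 4/5 markers, 0 passed in either direction, and Reln, tested as a marker of other excitatory neurons, was lower (-0.57).

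Genes of the synaptic membrane had more low p-values in the lower direction. Of 47 synaptic adhesion genes, 2 were higher and 10 lower, 25.5% in all, with a median of -0.08. Il1rapl1 had 5941 to 6950 CPM in WT and 5568 to 6079 in Het (-0.20), Lrrtm4 7527 to 8593 and 6590 to 8006 (-0.19), and Cdh7 47.8 to 126 and 53.6 to 94.3 (-0.49), while Nrxn2 had 110 to 173 and 166 to 202 (0.37). Of 19 glutamate receptor genes, 0 were higher and 5 lower (26.3%, median -0.09), among them Grm7 (-0.18) and Grid1 (-0.23). Of 11 GABA-A receptor genes, 1 was higher, Gabrd (0.74), and 3 were lower, among them Gabra5 and Gabrb2 (36.4%, median -0.10). Gabra5, the subunit of extrasynaptic receptors, had 22.4 to 36.6 CPM in WT and 15.3 to 21.2 in Het, without overlap, a log2 fold change of -0.57 (edgeR adjusted p = 0.309).

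Channel genes went both ways. Of 28 potassium channel and KChIP genes, 2 were higher and 2 lower (14.3%, median 0.08), namely Kcnc1 (0.47) and Kcnip3 (0.30), and Kcnt2 (-0.28) and Kcnip4 (-0.14). Of 21 sodium and calcium channel genes, 1 was higher and 3 lower (19.0%). Cacna1g, a T-type calcium channel, had 21.1, 27.4 and 32.9 CPM in WT and 33.7, 41.8 and 47.7 in Het, without overlap (0.57, edgeR adjusted p = 0.213). Of 25 axon guidance genes, 2 were higher, among them Unc5d (0.22), a netrin receptor of upper layer neurons, and 1 was lower, Efna5 (-0.37).

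Of 12 genes of mature neurons, 3 were higher and 0 lower (25.0%, median 0.10): Camk2b (0.26), Camk2a (0.19) and Rbfox3 (0.19), which encodes NeuN. Camk2a had 749, 825 and 889 CPM in WT and 858, 956 and 1059 in Het. Of 7 genes of immature neurons, 0 passed in either direction (median 0.04). Of 8 activity-dependent genes, 3 were higher and 0 lower (37.5%, median 0.30): Nptx2 (0.76), Egr3 (0.62) and Nr4a3 (1.15), none above 59.8 CPM in any animal and all with overlapping groups. Of 8 genes of the MYT family and its corepressors, 1 was higher and 0 lower (median 0.05). Of 22 genes that the study names at this age, 21 were tested, 4 were higher, among them Etv5 and Nfix (0.30), and 1 was lower, Cntn5 (-0.25). The study chose those genes on these samples, so the count is not independent evidence of their direction.

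**Figure D4:**
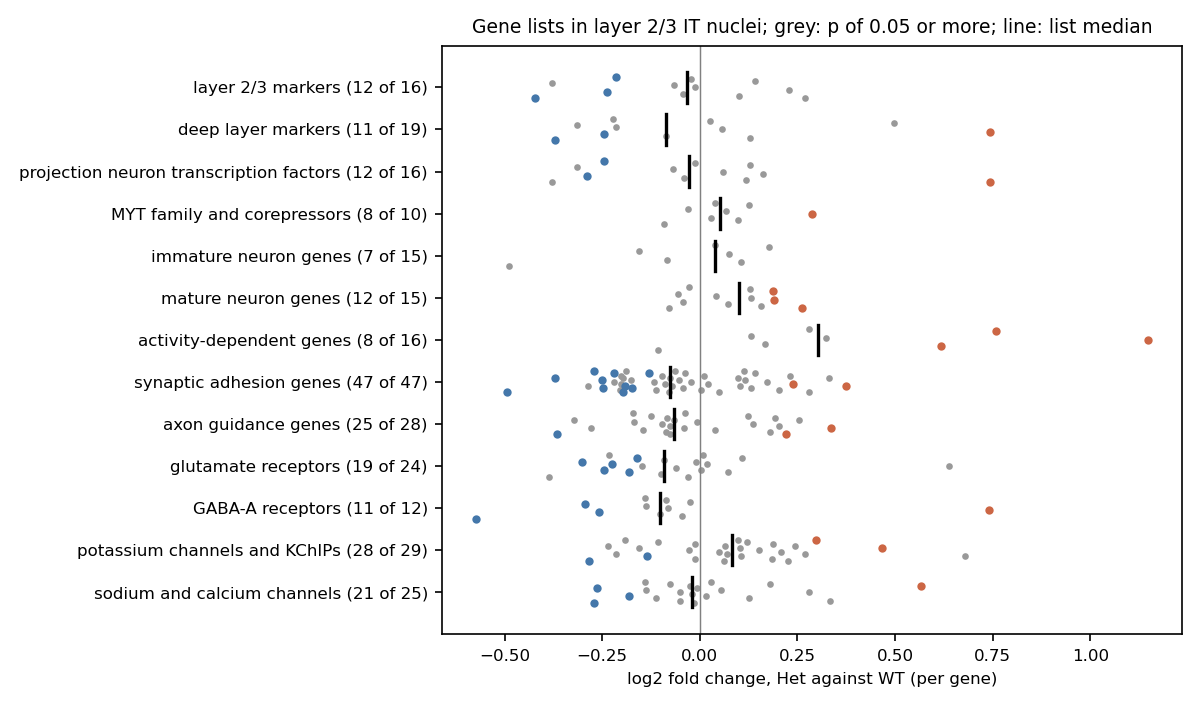
Log2 fold change of Het against WT for the tested genes of 13 lists in layer 2/3 IT nuclei (1 point per gene, x axis log2, numbers tested and listed beside each name). Orange and blue points have an unadjusted p under 0.05 and grey points do not, none was called after adjustment, and the medians run from -0.10 for GABA-A receptors to 0.30 for activity-dependent genes.

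Whether the Het difference depended on sex was tested with an interaction term. Of 8089 genes tested, 2 were called at an adjusted p under 0.05 (0.0247%). Egfem1, a gene for an EGF-like and EMI domain protein (chr3:29082023-29691209), averaged 654 ± 106 CPM in WT males and 437 ± 5.85 in Het males, but 683 ± 89.2 in WT females and 853 ± 14.7 in Het females (SD, n = 3 each). The interaction was 0.87 ± 0.16 on the log2 scale (SE, edgeR adjusted p = 0.0426). Aff2, a nuclear protein of transcription elongation encoded on the X chromosome (chrX:69360294-69868037), averaged 248 ± 4.22 and 294 ± 12.4 CPM in WT and Het males and 352 ± 34.1 and 234 ± 25.3 in WT and Het females (interaction -0.88 ± 0.17, adjusted p = 0.0460). Leaving out 1 animal gave 0 calls in 7 of 12 fits, 1 call in 4 fits and 4 calls in 1 fit. In the fits of each sex alone, Egfem1 was called in males (edgeR adjusted p = 0.0331) and not in females (adjusted p = 0.670), and Aff2 in neither (adjusted p = 0.730 and 0.169). Of the 8 genes called over both sexes, none was among these, and all 8 had the same direction within males and within females.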

How the data were processed

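Nuclei from 12 cortices were profiled with a combinatorial barcoding kit. The authors mapped reads to mm10 with the ScaleRna pipeline and deposited, per animal, a matrix of expected counts (UMIs per gene and barcode), of which 92.6% of entries were whole numbers. The counting strand is not given in the sources used here. The matrices hold 78743 barcodes, fewer than the nuclei stated in the methods, and 34862 fall within the study's limits of 800 to 6000 UMIs, 300 to 3000 genes and a log ratio of 0.9. Total UMIs per animal ran from 23429386 to 59958572, and those in layer 2/3 IT nuclei from 335232 to 1509292. The study removed multiplets with DoubletFinder; here the 5% highest Scrublet scores (scanpy 1.11.5) were removed as an alternative, 45 of the 1476 nuclei.

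Counts were summed per animal, rounded and tested with edgeR 4.0.16 (R 4.3.3; TMM scaling, filterByExpr, robust quasi-likelihood test, Benjamini-Hochberg adjustment) over all genes that passed the filter. The SE printed with a log2 fold change was its size divided by the square root of the F statistic of the quasi-likelihood test. Replicates were separate animals. DESeq2 1.42.0, RLE scaling, no filter, sex as covariate, a replicate block, each animal left out, each sex alone and other rules for choosing nuclei were alternatives. Shares were compared with exact permutation tests over animals, two-sided. The fits were tested on simulated data before use.

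Named genes were the 12 higher and 12 lower in Het with the smallest p, Myt1l and Lamp5, the 2 to 4 members of each list with the smallest p, the layer markers, the 8 largest called differences each way at 50 CPM or more between populations, and Xist and Uty. Those that could not be reported here were left out. Nuclei, gene lists and tests were chosen with earlier results of these data known. Gene coordinates are those of mm10, matched by Ensembl ID. The labels do not say whether replicate numbers pair animals. The correlations of same-numbered animals' deviations from their group means ran from -0.0042 to 0.12 over the 6 pairs, which does not settle it.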

Additional observations from a re-analysis of the deposited data

Results flagged for a closer look

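In 4 of 56 groups of 6 animals tested, the highest animal stood apart by Dixon's criterion at 95%, and chance gives about 1 in 20 groups. WT male 1, the animal with the fewest layer 2/3 IT nuclei, had 161 CPM of Ankrd33b, where the other WT animals had 110 to 128. WT female 2 had 59.0 CPM of Etv5, where the other WT animals had 29.1 to 33.5. Rph3a stood apart in both genotypes: WT female 3 had 77.8 CPM against 41.9 to 53.8 in the other WT animals, and Het male 2 had 117 CPM against 71.1 to 83.5 in the other Het animals.

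The Het difference depended on sex by the interaction test of edgeR for Egfem1 (0.87 on the log2 scale, female minus male) and for Aff2 (-0.88). In Egfem1 all 3 Het males (431 to 443 CPM) were below all 3 WT males (532 to 724), and all 3 Het females (845 to 870) were above all 3 WT females (623 to 785). In Aff2 all 3 Het males (285 to 308 CPM) were above all 3 WT males (245 to 253), and all 3 Het females (213 to 262) were below all 3 WT females (317 to 386). With 3 animals of each sex and genotype, leaving out 1 animal left 0 called genes in 7 of 12 fits.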

How the results depend on the processing

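The 8 genes called between Het and WT kept their direction in every alternative that gave them an adjusted p, but their number did not hold. DESeq2 called 24, no filter on low counts 33 (28 higher, 5 lower, with the median over genes at 0.07), the study's limits 0 (124 of 1748 genes at an unadjusted p under 0.05, with 3 WT animals left, all male), nuclei without oligodendrocyte UMIs 3, Enpp2 left out of the rule 5 (5 higher, 0 lower) and females alone 0 (493 of 7393 at an unadjusted p under 0.05), against 8 in males, of which 4 were among the 8 of both sexes. Of the 5 genes called with Enpp2 left out, 3 were among the 8, while Clmp was at 0.48 (edgeR adjusted p = 0.509), Per2 at 0.39 (0.309), Gm49164 at -0.94 (0.205) and Kctd16 at -0.18 (0.439). Kctd16 was -0.04 within the study's limits (0.988). Fewer genes or animals enter some of these fits, and the cause of the other changes was not tested. Leaving out 1 animal gave 2 to 12 calls: 2 without WT male 3 or Het female 3, 3 without Het male 2, and 4 without WT male 2, Het male 1 or Het female 2. RLE scaling gave 8, sex as covariate 9 (Kctd16 no longer called, adjusted p = 0.0583), removal of the 5% highest Scrublet scores 6 (Antxr1 and Kctd16 no longer called, adjusted p = 0.0757 and 0.0694) and the fit without both WT male 1 and WT female 3 gave 9. Nuclei with a Lamp5 UMI gave 6 calls, 3 of them among the 8. Clmp, Ankrd33b and Per2 were then no longer called (edgeR adjusted p = 0.179, 0.129 and 0.0623). At least 2 UMIs of Enpp2 gave 10 calls, 6 of them among the 8. Clmp and Antxr1 were then no longer called (adjusted p = 0.0983 and 0.0734). The replicate block gave 10 calls, with Antxr1 and Kctd16 no longer called (adjusted p = 0.060 and 0.106). The labels do not say whether replicate numbers pair the animals, and 2 of the WT animals correlated best with the Het animal of their own number. With the block, the share of layer 2/3 IT nuclei differed by 1.37 points (exact permutation p = 0.188).

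The share difference ran from 0.915 to 1.76 points when 1 animal was left out and was 2.51 with Enpp2 left out of the rule, 0.603 with at least 2 UMIs of it, 0.920 in nuclei without oligodendrocyte UMIs, 0.267 after thinning to 2000 UMIs (exact permutation p = 0.331) and 0.617 within the study's limits (exact permutation p = 0.167). The TDTOMATO difference ran from -19.1 to 19.8 CPM. Calls against Rorb-high nuclei were 361 to 389 with 1 animal left out, 834 without a filter and 107 within the study's limits, and those against Foxp2-high nuclei 920 to 993, 2064 and 270. The sex interaction called 4 genes with DESeq2 and 0 to 4 with 1 animal left out, 4 without WT female 2.

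Some log2 fold changes of named genes changed sign. Lamp5 in Het against WT was 0.0075 in nuclei with a Lamp5 UMI, 0.024 in females and 0.019 without WT male 1 and WT female 3. Myt1l was -0.032 within the study's limits, -0.014 in females, -0.014 without both of those WT animals, and -0.016 to 0.089 with 1 animal left out. Against Rorb-high nuclei, Cux1, at 0.45 in the fit reported, was -0.21 within the study's limits, Zfpm2 was -0.0061 without a filter and Tshz2 was -0.13 with DESeq2. Against Foxp2-high nuclei, Tshz2, called lower at -1.03 in the fit reported, was 0.042 within the study's limits. With 1 animal left out, Zfpm2 against Rorb-high nuclei ran from -0.077 to 0.17 and Tshz2 from -0.12 to 0.24. The fit without WT male 1 and WT female 3, the TDTOMATO values with 1 animal left out and the alternatives for the interaction were chosen after seeing the data. Depth limits the fits: 7220 of 55336 features passed the filter on low counts.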

Other observations

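Per2 and Per3 stood among the genes with the smallest p in Het against WT, and the circadian clock genes were then described, chosen after these values were seen and with no test of the group. Of 15 clock genes, 12 were tested, 10 had higher values in Het and 5, Per2 and Per3 included, had an unadjusted p under 0.05, beside 7.95% of all tested genes, with a median log2 fold change of 0.17. Per2 and Per3 prompted the list, so their place in these counts supports nothing. Per1 had 11.4 to 38.8 CPM in WT and 23.9 to 43.0 in Het (0.62, edgeR adjusted p = 0.427), Cry2, a partner of the Per proteins, 41.8 to 76.2 and 64.5 to 85.6 (0.37, adjusted p = 0.427), and Bhlhe40, another repressor of the clock, 4.99 to 15.4 and 13.5 to 20.7 (0.68, adjusted p = 0.455). The groups overlapped for all 3. The Het level of Bhlhe40 carried it through the filter on low counts, which favours a higher value in Het, so its place in the counts supports nothing either. Clock and Arntl, whose proteins activate the Per and Cry genes, had log2 fold changes of -0.09 and -0.06, and Nr1d2 0.05. The sources used here do not give the time of day at which each animal was taken.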
